A study of Mus musculus with 2 samples.

Results

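Macrophages with high RNA of Vcam1, Dnase1l3, Tmem176a, Tmem176b and Lilra5 were examined among leukocytes of mouse TSA tumours. Each cell was scored as the mean over these 5 genes of ln(1 + UMIs per 10000), where a UMI (unique molecular identifier) marks 1 captured RNA molecule. Members were selected on these measured values, as the cells in the top 30% of scores over both libraries in which C1qa, C1qb and C1qc together made up at least 0.2% of UMIs, Cd3e and Ncr1 had none, and Birc5, Top2a and Ube2c together had fewer than 3. There were 1533 members among 6198 cells (24.7%), of which 765 came from the untreated library and 768 from the NAM library. The 2087 C1q cells that met the same limits but scored lower, 945 untreated and 1142 NAM, are called other C1q cells.

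TSA cells, a mammary adenocarcinoma line, were injected under the skin of BALB/c mice and treatment began once tumours measured 0.25 cm2. Mice were left untreated or drank water with 0.5% nicotinamide (NAM, a form of vitamin B3 and a precursor of NAD) for 10 days. Tumours of 3 mice per group were dissociated and pooled, CD45+ leukocytes were held back on magnetic beads, and 1 droplet 3' RNA library was made per group. With 1 library per group there is no replicate check, no significance test was made, and the effect of NAM and a difference between the libraries cannot be told apart. Intervals are 95% intervals for counting error, exact except for a difference of 2 ratios with large counts, and the spread of mice, cells or libraries is not in them.

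Vcam1 is an adhesion molecule bound by integrins of leukocytes, and red pulp macrophages of the spleen are known for it. Dnase1l3 is a secreted nuclease that digests DNA in chromatin and in microparticles shed by dying cells. Tmem176a and Tmem176b are membrane proteins of the endolysosomal system of antigen-presenting cells, Lilra5 is an activating leukocyte immunoglobulin-like receptor, and C1q starts the classical complement pathway and is made by tissue macrophages.

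Tmem176a (chr6:48840919-48847071, plus strand) and Tmem176b (chr6:48833818-48841496, minus strand) overlap at their 5' ends in opposite orientation (GENCODE vM21, GRCm38). The promoter windows, from RefSeq on GRCm38.p6, run from 250 bases before to 50 bases after a start site. They are shown because 2 of the 5 genes that chose the members share this sequence, and the capitals mark the 155 bases that both windows cover on opposite strands (chr6:48841233-48841532 and chr6:48841088-48841387, the first of 2 and of 3 windows listed).
Tmem176a: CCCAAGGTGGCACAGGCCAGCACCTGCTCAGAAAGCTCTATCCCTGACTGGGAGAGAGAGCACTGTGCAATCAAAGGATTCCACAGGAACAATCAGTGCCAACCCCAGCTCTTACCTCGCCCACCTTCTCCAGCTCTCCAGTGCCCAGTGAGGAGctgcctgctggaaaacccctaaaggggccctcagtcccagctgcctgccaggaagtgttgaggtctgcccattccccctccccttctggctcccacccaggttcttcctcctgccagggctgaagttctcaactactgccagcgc
Tmem176b: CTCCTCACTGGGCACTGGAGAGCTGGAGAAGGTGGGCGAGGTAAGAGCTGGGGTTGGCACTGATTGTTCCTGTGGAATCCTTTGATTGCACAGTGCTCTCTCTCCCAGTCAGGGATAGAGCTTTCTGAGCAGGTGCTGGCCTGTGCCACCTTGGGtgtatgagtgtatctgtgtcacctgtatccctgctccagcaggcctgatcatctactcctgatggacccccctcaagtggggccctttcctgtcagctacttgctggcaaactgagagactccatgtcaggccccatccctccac
Vcam1 lies at chr3:116109949-116129688 (minus strand), Dnase1l3 at chr14:7964533-7994573 (minus strand) and Lilra5 at chr7:4237754-4243463 (plus strand).

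The score cut was 0.571. Of the 1859 cells above it, 130 fell short of the C1q share and 196 were left out for Cd3e, Ncr1 or cell cycle UMIs. The median depth of members was 9053 UMIs untreated and 9185 with NAM, that of other C1q cells 9488 and 9565. Their scores ran from the cut to 2.12 in the untreated library (median 0.97) and to 2.27 in the NAM library (median 0.94). The scores of C1q cells formed a continuous range across the cut rather than separate groups. The 100 members just above the cut had 304 CPM (UMIs per 1000000 UMIs of the class) of Vcam1 and 31.2 of Dnase1l3, and the 100 other C1q cells just below it 229 and 48.1. Mmp12, the macrophage elastase, stood at 56.3 CPM just inside and 122 just outside. The MHC class II gene H2-Aa stood at 8202 CPM just inside and 9169 just outside, and the invariant chain Cd74 at 24388 and 26272. At the cut these 2 genes were thus not higher in members, unlike in the comparison of the whole classes below.

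**Figure D1:**
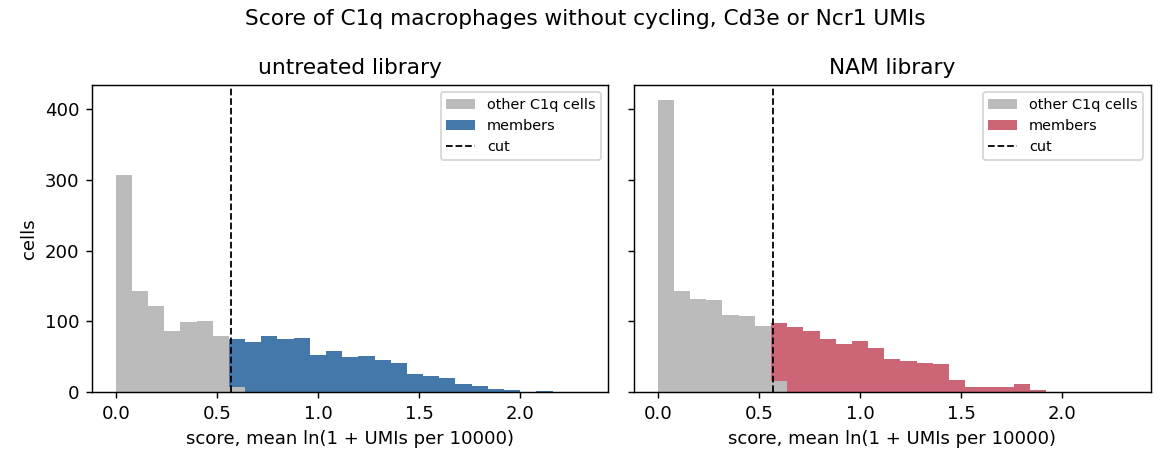
Histograms of the score (x axis, mean ln(1 + UMIs per 10000)) against number of cells (y axis) in the untreated and the NAM library, with members in colour, other C1q cells in grey and the cut as a dashed line. The cut at 0.571 falls within a continuous range in both libraries.

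The genes that chose the members differed in how widely they were seen. Tmem176b had a UMI in 94.8% of untreated and 94.9% of NAM members, Tmem176a in 85.5% and 84.2%, Vcam1 in 73.3% and 67.4%, Dnase1l3 in 45.2% and 49.5%, and Lilra5 in 32.9% and 28.4%. All 5 were seen together in 81 untreated (10.6%) and 64 NAM members (8.33%). Dnase1l3 had a UMI in 48.8% of untreated members with Vcam1 and in 35.3% of those without it, and in 52.9% and 42.4% of NAM members. Vcam1 stood at 421 CPM in untreated and 387 CPM in NAM members, Dnase1l3 at 139 and 155, Tmem176a at 377 and 313, Tmem176b at 614 and 567, and Lilra5 at 54.6 and 48.5. These shares, taken over all UMIs of a cell, and levels were fixed in part by the rule and are given as a description. In other C1q cells, which the rule kept low, Dnase1l3 went from 10.8 CPM untreated to 23.3 CPM with NAM.

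The macrophage label was checked against marker lists. Members held Lyz2 (19178 CPM untreated, 18684 NAM), Apoe (23689 and 22410), Csf1r (662 and 556), Adgre1 (415 and 326), Cd68 (754 and 781) and Ms4a7 (1910 and 1921). Mertk, a receptor for dying cells, was low at 13.7 and 14.0 CPM, and Marco had no UMI. The summed T cell list (10 genes matched) stood at 33.8 CPM untreated and 24.9 NAM, of which Cd4 made up 20.8 and 12.2. The NK list summed to 67.0 and 85.2 CPM, the B cell list to 30.1 and 19.0, the dendritic cell list to 66.8 and 91.9, the neutrophil list to 55.9 and 98.5, the fibroblast list to 34.1 and 46.3, the endothelial list to 30.4 and 30.6, the mast cell and basophil list to 5.82 and 7.97 and the tumour epithelium list to 11.6 and 17.0. Red blood cell RNA summed to 20.9 and 40.9 CPM in members and to 21.2 and 768 CPM in other C1q cells, and its part in the values of other C1q cells with NAM was not tested. The B cell gene Pax5 had no UMI in members, nor had Ncr1, which the rule barred. The monocyte list was the highest of these at 325 and 349 CPM. In other C1q cells the dendritic cell list was lower than in members, at 39.6 CPM untreated and 41.4 NAM. So were the T cell list, at 16.7 and 15.7, and the NK list, at 44.7 and 59.2. The monocyte list was higher there, at 614 and 535 CPM, and the neutrophil list stood at 79.2 and 77.4. The 2 libraries shared 11 barcodes, 4 of them members.

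Members made up 26.2% of untreated cells (95% interval 24.6 to 27.8) and 23.4% of NAM cells (22.002 to 24.932), a log2 ratio of -0.16 (-0.31 to -0.01). Of C1q cells that met the limits they were 44.7% untreated and 40.2% NAM. Setting the top 30% within each library gave 723 and 807 members and a log2 ratio of -0.0064, and by its construction that setting nearly equalises the libraries.

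Against other C1q cells, members were rich in RNA for antigen presentation on MHC class II and poor in RNA of the Mmp12 and Spp1 kind. Of 7736 genes, 34 were at least 2 fold higher in members in both libraries (0.44%) and 77 at least 2 fold lower (0.995%). The 34 include the 5 score genes. As the same cells chose the members, these values describe them and test nothing.
The MHC class II genes H2-Aa, H2-Ab1 and H2-Eb1, with the invariant chain Cd74 and the transactivator Ciita, were the 5 of 11 class II genes past this fold. H2-Aa stood at 11207 CPM in untreated members and 4005 in other C1q cells, and at 13626 and 6314 with NAM, log2 ratios of 1.48 and 1.11. H2-Eb1 was higher by 1.56 and 1.18 and Ciita, at 14.6 against 5.82 CPM untreated, by 1.32 and 1.13. For H2-Aa, members of both libraries lay above other C1q cells of both libraries.
The T cell-attracting chemokine Cxcl9 was higher by 1.29 untreated and 1.21 with NAM. The B cell-attracting chemokine Cxcl13 (chr5:95956951-95961068) showed the largest ratio outside the rule when each gene was ranked by the ratio nearer 0 of the 2 libraries, 2.64 and 3.41, but only 63 untreated and 55 NAM members had a UMI of it, and 5 cells held 55.4% and 47.9% of its UMIs. Of the receptors, Treml4 was higher by 1.98 and 1.68, Siglece (a sialic acid-binding receptor) by 1.62 and 1.13, Clec4b1 by 1.99 and 1.61 and Tlr12 by 2.52 and 1.42. Treml4, Siglece and the score gene Lilra5 were the 3 of 24 paired immune receptors past the fold. The complement component C6 was higher by 1.27 and 1.93 and the copper oxidase Cp by 1.58 and 1.51.

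Of the 15 genes with the highest ratios outside the rule, 3 lie beside each other on chromosome 6, Gpr162 (chr6:124858444-124863983), Cd4 (chr6:124864692-124888221) and Lag3 (chr6:124904361-124911705), all on the minus strand. Cd4, the coreceptor of helper T cells that some macrophages also make, was higher in members by 2.27 and 1.99, Lag3, an inhibitory receptor that binds MHC class II, by 2.38 and 1.38, and the orphan receptor Gpr162 by 1.64 and 1.41. Their levels in members were low, 20.8, 40.5 and 15.8 CPM untreated and 12.2, 27.6 and 14.0 CPM with NAM. T cells had 477 and 490 CPM of Lag3. Among cells thinned to 3000 UMIs, Lag3 had a UMI in 8.63% of untreated members and 1.80% of other C1q cells, while the T cell receptor chain gene Cd3g had one in 0.915% and 0.741%. With NAM these were 7.81% and 2.19% for Lag3 and 1.43% and 0.876% for Cd3g. A UMI of Cd3d, Cd3g, Nkg7, Cd79a or Cd79b was seen in 30.3% of untreated and 25.3% of NAM members and in 22.2% and 25.7% of other C1q cells. Without the members that had one, the ratio nearer 0 was 2.04 for Cd4 and 1.42 for Lag3.

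Below other C1q cells lay Mmp12 (-3.04 and -3.09) and Spp1, osteopontin (-2.54 and -2.52). Mmp12 stood at 38.7 CPM in untreated and 62.5 CPM in NAM members and at 317 and 533 CPM in other C1q cells, and 5 cells held 45.5% of its UMIs in the members of either library. Of 19 genes of a mixed list of matrix, hypoxia and other tumour macrophage genes, 8 were past the fold lower and 0 higher, Hmox1, Fn1, Ctsk, Cd9 and Lgals3 among them. The glycolysis and hypoxia list had a median of -0.76 untreated and -0.69 with NAM over 23 genes, with 3 past the fold lower. Pdpn, Cd36, Adam8, S100a4, Rgcc, Lsp1, Pgf, Bdh2, Tnni2, Rgs18 and Adm were also among the 15 lowest. Across bands of rising score, H2-Aa climbed at each step and Mmp12 fell in both libraries from the first to the fourth band.

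**Figure D2:**
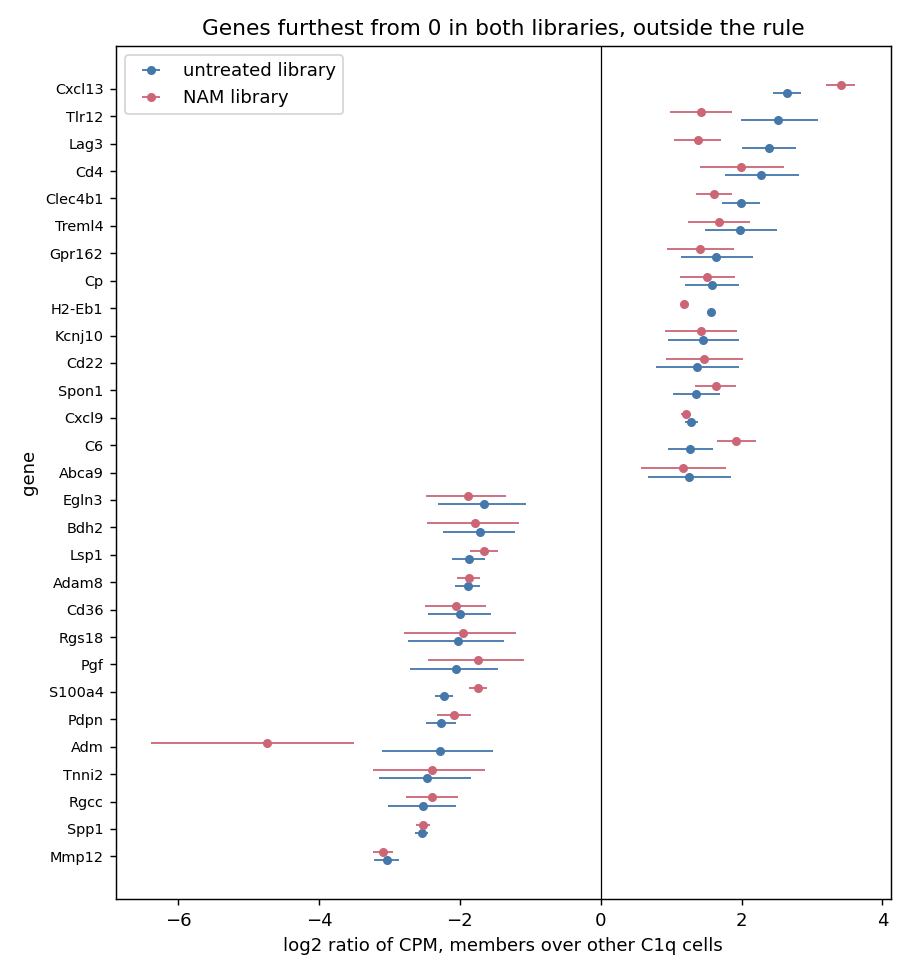
Log2 ratio of CPM, members over other C1q cells (x axis), for the genes named among the 15 highest and 15 lowest outside the rule (y axis), in the untreated and NAM libraries, with 95% counting intervals as bars. The genes shown each keep 1 direction in both libraries, and Cxcl13 (2.64 and 3.41) and Mmp12 (-3.04 and -3.09) stand at the ends by the untreated ratio, while Adm lies lowest with NAM (-4.74, from 5 UMIs in members).

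**Figure D3:**
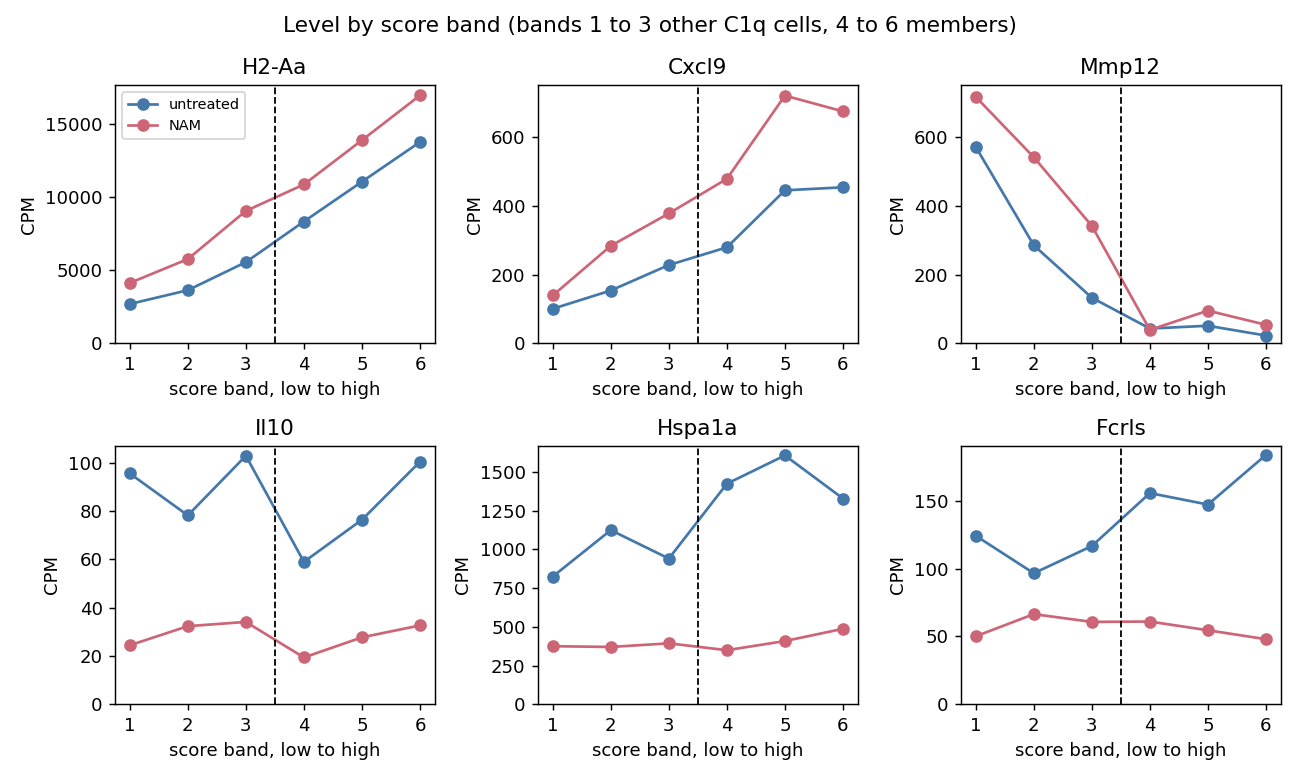
CPM (y axis) of 6 genes in 6 bands of C1q cells ordered by score (x axis), untreated and NAM, where bands 1 to 3 are other C1q cells and 4 to 6 are members, with the cut as a dashed line. H2-Aa and Cxcl9 stand higher and Il10, Hspa1a and Fcrls lower with NAM in all 6 bands.

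With NAM, members had more RNA of interferon gamma response genes and less of heat shock proteins, of Il10 and of several scavenging macrophage genes. Of 7466 genes with at least 100 UMIs in members, 179 (2.4%) were higher with NAM by a log2 ratio of 0.5 or more and 442 (5.92%) were lower by as much. The median over all of them was -0.02. In other C1q cells 2.12% of 8333 genes were higher by as much and 5.96% lower, with a median of -0.03.

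Interferon gamma acts through Irf1 and other factors to raise antigen presentation genes, GTPases and the chemokines Cxcl9 and Cxcl10. Of 28 interferon gamma response genes, 11 were past the fold higher and 1 lower, with a median of 0.38. In other C1q cells 14 of 29 were past the fold higher and 1 lower, with a median of 0.45. Irf1 went from 90.4 CPM in untreated to 162 CPM in NAM members (0.84, interval 0.70 to 0.98). Socs1, the feedback inhibitor of this signal, went from 30.8 to 69.6 CPM (1.18, 0.95 to 1.41). Cxcl9 went from 399 to 617 CPM (0.63, 0.56 to 0.70), and among thinned cells it had a UMI in 33.2% of untreated and 52.5% of NAM members against 0 of 194 untreated T cells, which by 3 cells of the total allows a share with a UMI of up to 1.55%, and 2.58% of NAM T cells. Before thinning these shares were 47.3% and 68.6% of members and 4.64% and 5.17% of T cells. The median depth of T cells before thinning was 4680 and 4502 UMIs. The others past the fold were Gbp2b, Igtp, Irgm1, Iigp1, Tgtp2, Batf2, Ly6a and AW112010, and the kinase gene Jak2 was the 1 lower (-0.64).
MHC class II genes had a median of 0.28 over 11 genes in members, with H2-DMb1 (0.55) and H2-DMb2 (0.57), which load peptide onto class II, past the fold. In other C1q cells the same median was 0.60 with 7 genes past the fold. For H2-Aa the ratio was 0.28 in members and 0.66 in other C1q cells, a difference of -0.37 (-0.40 to -0.35), so the ratio of members over other C1q cells was nearer to 0 with NAM on the log2 scale. MHC class I and peptide loading genes had a median of 0.32, with Tap2 (0.62), Psme2 (0.51) and Nlrc5 (0.74) past the fold of 21. In other C1q cells 2 of 21 were past the fold higher and 0 lower, with a median of 0.26.
Of 29 type I interferon response genes, 1 was past the fold higher, Ifitm1 (0.76), and 4 lower, Oasl1 (-0.97), Ifit3b (-0.86), Cmpk2 (-0.59) and Rsad2 (-0.54), with a median of 0.03. Cmpk2 turned to 0.07 with the top 20% of cells as members. In other C1q cells 1 of 29 was past the fold higher and 1 lower, with a median of 0.01.

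The Irf1 promoter window is shown because Irf1 was past the fold and bears a gamma-activated site, the letters TTCNNNGAA, in capitals (chr11:53769764-53770063, plus strand, the first of 2 windows).
Irf1: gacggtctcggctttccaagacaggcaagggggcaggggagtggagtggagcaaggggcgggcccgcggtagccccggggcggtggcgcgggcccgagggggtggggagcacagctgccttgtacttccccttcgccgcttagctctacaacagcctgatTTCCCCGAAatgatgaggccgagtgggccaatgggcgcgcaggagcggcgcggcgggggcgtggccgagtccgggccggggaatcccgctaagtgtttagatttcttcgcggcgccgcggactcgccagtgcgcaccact
The letters were in a window of 8 of 22 interferon gamma response genes with a window and in 9.55% of all 27025 genes. The letters were searched on both strands, which read alike. The interferon-stimulated element, GAAA and GAAA with any 2 bases between them, on either strand, was in 12 of the 22 (54.5%) and in 3.99% of all genes. Of 23 type I interferon response genes with a window, 15 had the element (65.2%). The 1 window of Cxcl9 held neither the site nor the element. The genes of these lists are known as interferon targets, so these shares describe the lists.

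**Figure D4:**
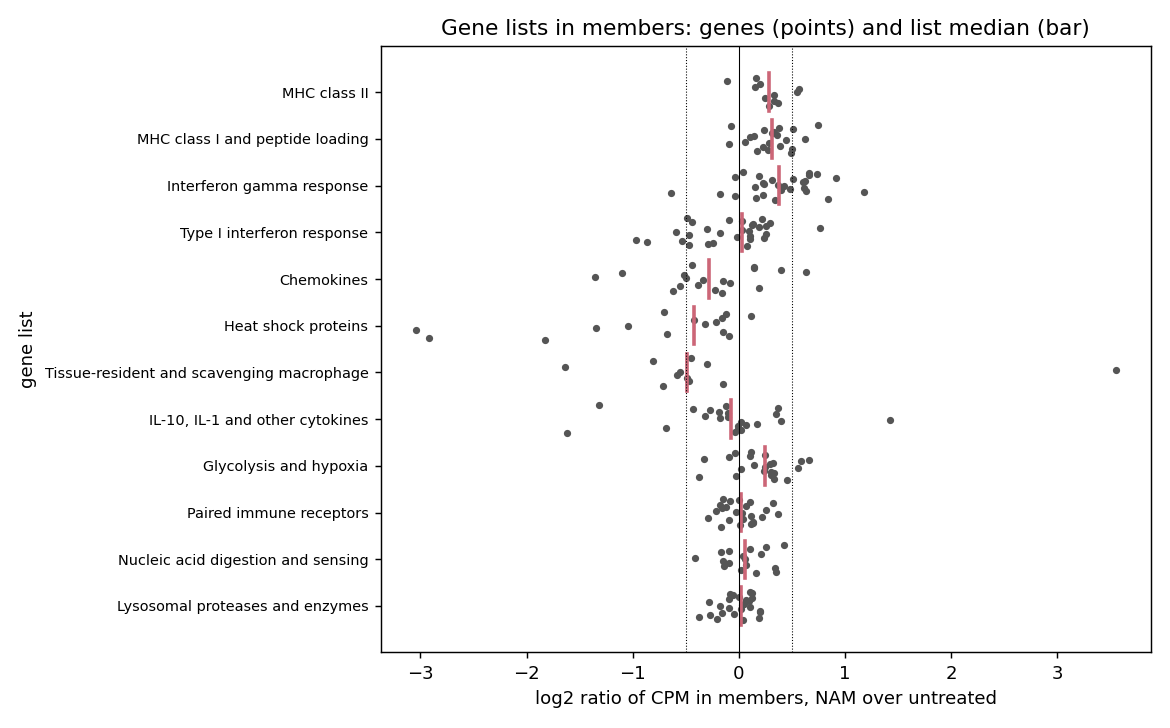
Log2 ratio of CPM in members, NAM over untreated (x axis), for genes (points) of 12 lists (y axis), with the list median as a red bar and the fold of 0.5 as dotted lines. The interferon gamma response median lies at 0.38 and the heat shock median at -0.42, and the point at 3.55 in the scavenging list is Cd209f.

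Heat shock proteins, the chaperones of stressed cells, were lower in NAM members, 7 of 15 past the fold and 0 higher, with a median of -0.42. In other C1q cells 6 of 15 were past the fold lower and 1 higher, with a median of -0.32. In members, values were as follows. Hspa1a went from 1451 to 409 CPM (-1.83, -1.89 to -1.77), Hspa1b from 186 to 24.6 (-2.92), Hspb1 from 46.3 to 5.63 (-3.04), Hsph1 from 46.2 to 18.1 (-1.35) and Dnajb1 from 173 to 83.8 (-1.05). T cells of the same libraries also differed, with Hspa1a at 697 CPM untreated and 136 CPM with NAM. Other C1q cells had 976 and 379 CPM. The part of this shift across cell types in the members' values was not tested. Hspa1a and Hspa1b are near-identical copies, with 296 of 300 promoter bases alike, and reads may have been split between them. Their windows are shown for the heat shock element GAANNTTC, in capitals (chr17:34972107-34972406 and chr17:34959189-34959488, minus strand).
Hspa1a: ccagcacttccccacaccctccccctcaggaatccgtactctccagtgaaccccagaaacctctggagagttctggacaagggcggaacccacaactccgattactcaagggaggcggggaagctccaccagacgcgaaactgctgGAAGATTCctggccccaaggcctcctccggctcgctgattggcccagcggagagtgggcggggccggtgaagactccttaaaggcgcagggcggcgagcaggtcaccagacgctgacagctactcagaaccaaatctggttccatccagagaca
Hspa1b: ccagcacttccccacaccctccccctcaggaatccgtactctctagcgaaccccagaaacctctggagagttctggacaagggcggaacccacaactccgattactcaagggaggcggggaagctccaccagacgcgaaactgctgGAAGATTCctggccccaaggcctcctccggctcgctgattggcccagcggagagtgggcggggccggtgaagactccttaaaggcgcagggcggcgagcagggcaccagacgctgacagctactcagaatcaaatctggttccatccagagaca
The element was in windows of 8 of 11 heat shock genes with one (72.7%) and of 9.04% of all genes.

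Scavenging and resident macrophage genes were lower with NAM, 5 of 11 past the fold and Cd209f past it higher, with a median of -0.48. In other C1q cells 8 of 13 were past the fold lower and 0 higher, with a median of -0.67, or -0.54 over the 11 genes tested in members. In members, values were as follows. Cbr2 went from 61.7 to 19.8 CPM (-1.64), the folate receptor Folr2 from 206 to 125 (-0.71), the mannose receptor Mrc1 from 318 to 212 (-0.58), Stab1, which takes up modified lipoproteins, from 165 to 112 (-0.56) and F13a1 by -0.81. The transcription factor Maf fell from 145 to 93.4 CPM (-0.63). Fcrls, chosen after its values were seen, went from 163 to 55.1 CPM (-1.57) in members and from 111 to 59.1 in other C1q cells (-0.92).
The anti-inflammatory cytokine Il10 went from 79.7 to 26.0 CPM (-1.62, -1.86 to -1.38), and the share of thinned members with a UMI from 14.9% to 6.12%, against 3.61% and 2.58% of T cells. In other C1q cells it went from 91.5 to 30.2 CPM, and the difference between the classes was -0.02 (-0.33 to 0.28). The growth factor Igf1 went from 31.5 to 12.6 CPM (-1.32), while the inflammatory cytokine Il1b stood at 2687 and 2665.
Of 18 chemokines, 5 were past the fold lower and Cxcl9 higher, with a median of -0.28. The neutrophil-attracting chemokine Cxcl1 went from 609 to 239 CPM (-1.35) and Cxcl2 from 2205 to 1546 (-0.51). Ccl3, Ccl6 and Cxcl3 were the other 3 past the fold lower in members. In other C1q cells 3 of 19 chemokines were past the fold higher and 3 lower. Their median there was -0.21, or -0.25 over the 18 genes tested in members.

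The 10 lowest genes were Lepr, Hspb1, Areg, Hspa1b, Gdf15, Jdp2, Dennd5b, Gm10126, Hspa1a and Fhl3, from -3.69 to -1.81. In other C1q cells all 10 were lower with NAM too, from -3.37 (Lepr) to -1.14 (Areg). In members, the leptin receptor Lepr went from 42.6 to 3.30 CPM. It was seen in only 55 untreated and 12 NAM members, and 5 untreated members held 67.8% of its UMIs. The 10 highest were Cd209g, Cd209f, S100a8, Serpinb6b, S100a9, Fscn1, Igfbp7, Il12b, Col1a1 and Itgb7, from 4.42 to 1.21. Several of these rested on single cells, and without the 5 highest cells of each library Cd209f stood at -0.42 and Il12b had no NAM UMI left. One NAM member held 325 of 345 Cd209g UMIs and 139 of 177 Cd209f UMIs. Another held 52 of 84 Il12b, 75 of 135 Fscn1, 51 of 105 Serpinb6b and 42 Ccr7 UMIs beside 76 of C1qa, and another NAM member held 134 of 242 S100a8 and 104 of 226 S100a9 UMIs. Itgb7, an integrin chain, was spread over cells. Before thinning it had a UMI in 9.28% of untreated and 19.4% of NAM members, and it went from 12.8 to 29.5 CPM (1.21). In other C1q cells Itgb7 went from 15.4 to 36.3 CPM (1.24), and T cells had 199 and 146 CPM.

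No gene past the fold was found among 25 lysosomal enzyme genes, 24 paired immune receptors, 13 complement genes on the list, 6 Fc gamma receptors or 17 nucleic acid digestion and sensing genes, the last with a median of 0.06. The complement component C6, which is not on that list, went from 32.5 to 50.4 CPM in members (0.64, 0.39 to 0.88) and from 13.5 to 13.3 in other C1q cells. Of 14 NAD metabolism genes, 0 were past the fold higher and 2 lower, Sirt6 (-0.77) and Parp1 (-0.53). Over all genes tested in members, 2.4% were past the fold higher and 5.92% lower. Lists this short cannot set 0 genes, or 2 of 14, apart from those shares. Of 22 glycolysis and hypoxia genes, 3 were past the fold higher, Bnip3 (0.66), Slc16a3 (0.58) and Pgk1 (0.55).

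**Figure D5:**
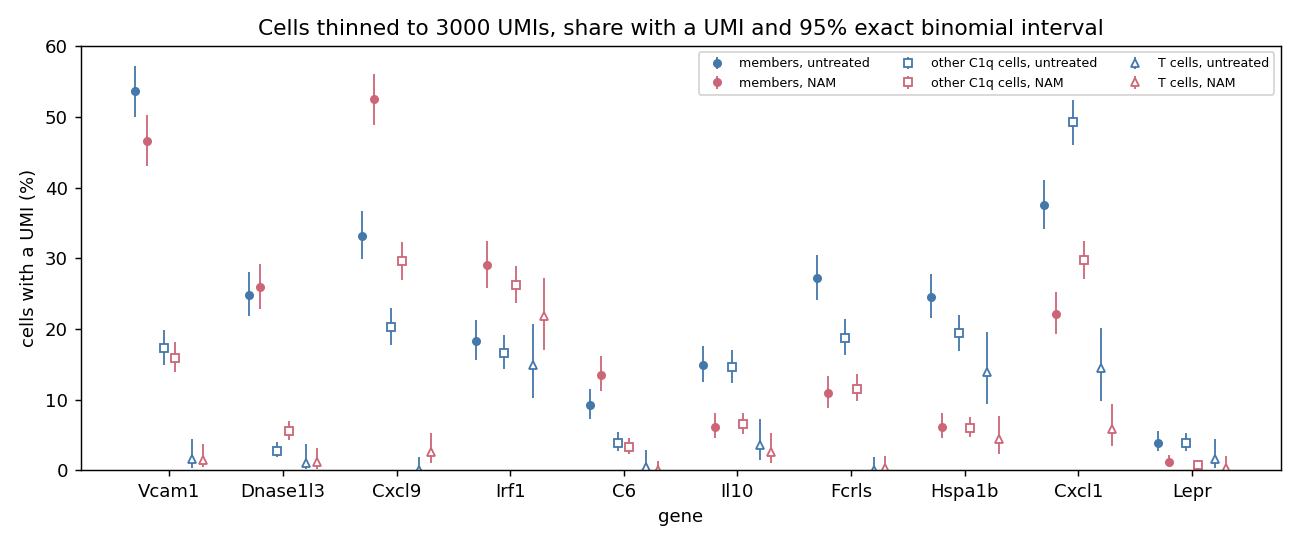
Share of cells with a UMI (y axis, percent) after thinning each cell to 3000 UMIs, for 10 genes (x axis), in members, other C1q cells and T cells of each library, with exact 95% binomial intervals as bars. Among members Cxcl9 went from 33.2% to 52.5% and Il10 from 14.9% to 6.12%.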

How the data were processed

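The deposited values are raw UMI counts per gene and cell (27998 gene symbols), counted by the authors with Cell Ranger on mm10 from 10x Genomics droplet 3' libraries and deposited without normalization. The annotation version is not given in the sources used here. The untreated library held 2922 cells and 29161823 UMIs, the NAM library 3276 cells and 32090120. Cells had at least 3001 UMIs and 1020 genes and at most 5.85% mitochondrial UMIs, so barcodes with few UMIs or many mitochondrial ones were already absent. These values do not show that damaged cells, doublets or RNA from other cells were absent. The paper reports that part of the cells loaded were not viable.

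The members and the 42 gene lists were chosen with earlier results of these data known. Of 630 listed genes, 11 had no matching symbol, and some others are not reported here by name. CPM is the sum of a gene's UMIs in a class and library, scaled by all UMIs there. Log2 ratios carry exact conditional binomial intervals, shares Clopper-Pearson intervals. Ratios carry no pseudocount, except 0.5 UMIs where a count was 0. The interval of a difference of 2 ratios was exact where its counts summed to 5000 or less and a normal approximation otherwise. Genes needed 100 UMIs. Named genes were the rule's genes, list members past the fold, the 10 highest and 10 lowest NAM ratios whose interval left out 0, and the 15 highest and 15 lowest class ratios outside the rule. Score bands and promoter motifs were added after the data were seen. T cells had a Cd3e UMI and a C1q share under 0.2%. No doublet caller was run, and doublets were treated through alternatives without the deepest 5% of cells and without members with lymphocyte UMIs. The ratio and its interval were checked on simulated counts with known folds. There were 18 alternatives, 1 of them (without barcodes found in both libraries) added after the data were seen. Python 3.11.15, NumPy 2.4.6, SciPy 1.17.1, pandas 2.3.3 and matplotlib 3.10.9 were used. Coordinates come from GENCODE vM21 and promoters from a table of RefSeq windows (GRCm38.p6), in which 3 of the 5 score genes were matched.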

Additional observations from a re-analysis of the deposited data

Results flagged for a closer look

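In 12 of 492 named or listed genes the NAM ratio pointed one way in members and the other way in other C1q cells, each with a counting interval that left out 0. The 492 include genes picked as extremes of the NAM and class ratios. No share over all genes tested was taken, so the 12 have no background to be set against. With 1 library per group the difference between the classes was not tested beyond counting error. Lower in NAM members and higher in NAM other C1q cells were Lag3 (-0.55 against 0.46), Rsad2 (-0.54 against 0.16), Ifit1 (-0.47 against 0.37), Tlr12 (-0.41 against 0.69), Klf2 (-0.27 against 0.32), Ifit3 (-0.24 against 0.27) and Ccl4 (-0.23 against 0.10). Higher in NAM members and lower in NAM other C1q cells were Ly6c2 (0.59 against -0.33), Cxcl13 (0.35 against -0.42) and Fabp5 (0.21 against -0.14). Cd209g (4.42 against -2.44) and Cd209f (3.55 against -2.73) did the same. For Cxcl13 the share of members with a UMI was 8.24% untreated and 7.16% with NAM, and in the highest score band it went from 284 to 141 CPM. In NAM members 5 cells held 98.3% of the Cd209g and 98.3% of the Cd209f UMIs. The 5 highest cells held 54.2% of the Ly6c2 UMIs in NAM members.
With the top 20% of cells as members, Ifit3 and Ly6c2 no longer pointed these ways, and Fabp5 stood near 0 when Vcam1 was left out of the score.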

How the results depend on the processing

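Over 18 alternatives, 202 results gave 3592 values, of which 3252 stayed within the main interval, or within 1.5 times the main count, 322 moved, and 18 changed sign where the main interval left out 0. Among the others, 87 values of 27 results, whose main interval held 0, also lay on the other side of 0. The counts of genes past a fold rested on the UMI minimum. With 20 UMIs, 555 genes were higher and 1084 lower with NAM in members, and 57 higher and 137 lower in members than in other C1q cells. With 1 UMI these were 2162, 2935, 281 and 422. Cells thinned to 3000 UMIs, among which the classes were chosen anew (892 and 888 members), gave 13 higher and 26 lower between the classes. The top 30% within each library moved the log2 ratio of the share of members to -0.0064 and the MHC class II median to 0.23. That median was 0.35 in thinned cells and 0.36 without members with a lymphocyte UMI. The interferon gamma response median was 0.53 with the top 20% of cells. The chemokine median was -0.35 with the top 40%, -0.36 without Vcam1 in the score and -0.35 without members with a lymphocyte UMI. These list medians kept their direction, as did that of heat shock proteins, while the type I interferon median ran from -0.03 to 0.20. The cause of the moves was not tested.

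The following single genes, whose main interval left out 0, changed sign. With the top 20% of cells, Ifit3 stood at 0.017, Ccl8 at 0.049, Cmpk2 at 0.066 and Ly6c2 at -0.52. Adm stood at 0.36 with the top 40% and at 0.51 without Tmem176b in the score. Without Vcam1, Cd209g stood at -0.71, Cd209f at -0.97 and Fabp5 at -0.0031. In thinned cells, Il12b stood at -0.19, Adm at 0.35, Ifit3 at 0.19, Ccl8 at 0.0014, Fn1 at -0.074, Nampt at -0.023 and Ly6c2 at -0.23. Without the 5 highest cells of each library, Cd209f stood at -0.42 and Il12b at -4.97, a value set by the pseudocount since no NAM UMI was left. With 1 library per group no library could be left out. No paired analysis was possible because the groups share only 1 replicate number. Genes under about 100 UMIs are limited by depth.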

Other observations

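Bands of rising score were also compared for genes that the account above does not describe by band. Apoe, the main apolipoprotein of macrophages, stood at 10622 CPM in untreated other C1q cells with a score of 0 and at 27270 CPM in the highest score band of untreated members, and at 10824 and 27143 CPM with NAM. Lag3 went from 2.95 CPM at score 0 to 63.6 CPM in the highest score band of untreated members, and from 7.08 to 37.9 CPM with NAM. Spp1 went the other way, from 1521 to 56.7 CPM untreated and from 1372 to 50.4 CPM with NAM.

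Atp1b3, a sodium pump subunit chosen after its values were seen, went from 200 to 412 CPM in members (1.04) and from 243 to 420 CPM in other C1q cells (0.79).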
